A study of Mus musculus with 2 samples.

Results

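The genes described here encode collagens, laminins and other proteins of the basement membrane and of the matrix beneath it: 45 genes, all matched by symbol among 21883 protein-coding mouse genes. Accessible regions, here called peaks, were given to a gene that they overlap or, failing that, to the nearest protein-coding gene within 50 kb. This gave 339 of the 84591 nuclear peaks, and 301 of them had a mean signal high enough to be compared. Of the 45 genes, 24 encode basement membrane proteins, 9 fibrillar collagens, 6 anchoring fibril and network collagens, and 6 are FACIT collagens (which sit on the surface of fibrils) or transmembrane collagens.

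The data are ATAC-seq, which marks open DNA by the insertions of a transposase, from basal cells of mouse skin epidermis. There was 1 library from the genotype given as basal lineage ablation and 1 from the wild-type control. Both were traced by K14, a keratin of basal cells, and sorted for high α6 integrin, no CD34, no Lrig1 and the fluorescent reporters YFP, GFP and RFP. The labels used here do not state the age of the mice, the alleles and agents behind the tracing and the ablation, or how many animals were pooled. Since each genotype has a single library, variation between animals is unknown. Differences are described by their size, and no p-value is given. Intervals are exact Clopper-Pearson 95% intervals and cover counting error only. In cells sorted in bulk, a change in the share of cells with an open site and a change in openness per cell cannot be told apart.

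The basement membrane is the thin sheet that anchors epidermis to dermis. Laminins, which are trimers of alpha, beta and gamma chains, and type IV collagen form its networks, nidogens and the proteoglycan perlecan join them, and type VII collagen anchors the sheet to the dermis. Keratinocytes make part of these proteins and dermal fibroblasts another part, while the fibrillar collagens of types I, III and V are chiefly fibroblast products that build the dermis.

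The ablation library held 12463908 reads in nuclear peaks and the control library 17056996. Mitochondrial peaks took 31.2% of all reads in peaks in ablation and 7.31% in control. The unit below is the authors' normalized read, worth 0.907 per read in ablation and 0.706 in control. Markers of basal keratinocytes (Krt5, Krt14, Itga6, Itgb4, Trp63) all had tested peaks, with 11847 normalized reads in ablation and 12120 in control. Within that sum Krt5 was at 1.16-fold (1.09 to 1.22), Itga6 at 0.830-fold (0.792 to 0.870) and Itgb4 at 0.915-fold (0.852 to 0.983). The intervals of Krt14 and Trp63 included no change. Of 8 fibroblast markers 6 had a tested peak, with 4165 normalized reads in ablation and 4329 in control, while Lum and Fap had no peak. Most of that sum lay at Fbln1, at 0.949-fold (0.903 to 0.997) over 18 peaks, and Thy1, at 0.946-fold (0.885 to 1.01) over 8. The intervals of Pdgfra and Dcn included no change. Twist2, with 22.7 in ablation and 8.47 in control (2.68-fold, 1.30 to 5.85), and Pdgfrb, with 22.7 in ablation and 9.88 in control (an interval of 1.15 to 4.78), stood higher in ablation, each from 1 peak. Endothelial markers held 3878 normalized reads in ablation and 3799 in control, with Emcn lacking any peak and Cdh5 lacking a tested one. Within that list Tie1 was at 2.36-fold (1.89 to 2.95), Flt1 at 1.47-fold (1.33 to 1.63) and Tek at 0.646-fold (0.569 to 0.733). The intervals of Pecam1 and Kdr included no change. Pericyte and smooth muscle markers held 3768 in ablation and 3999 in control, with no peak at Rgs5. Suprabasal markers held 2214 in ablation and 2569 in control (Flg without a tested peak), melanocyte markers 2909 and 3272 (Tyr without one), and Langerhans and myeloid markers 602 and 650. Hair follicle bulge markers held 1673 in ablation and 1415 in control. The part of other cell types in the results was not tested.

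Peaks over the starts of these genes differed little between the libraries. A RefSeq promoter window, from 250 bases before to 50 bases after a start, was at hand for 33 genes, and 21 of them had a tested peak over it. These 21 peaks (Col18a1 has a pair, and Col4a1 and Col4a2 share one) had log2 ratios of ablation to control between -0.53 and 0.79 with a median of 0.08. None reached 2-fold in either direction, against 1.27% higher and 0.235% lower among 11465 peaks over promoter windows of all genes. At shares this low, the absence of such a peak among 21 is no result about these genes. The interval lay wholly above 1 for Col5a1 and Col8a1 and wholly below 1 for none.

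**Figure D1:**
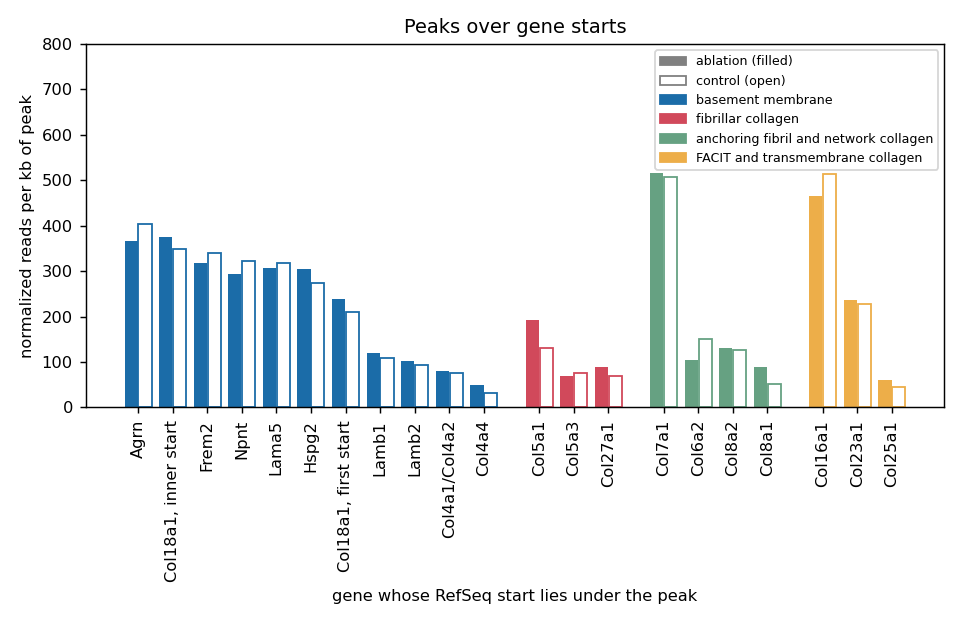
Normalized reads per kb of peak in ablation (filled bars) and control (open bars) for the 21 tested peaks over RefSeq starts, grouped by class, 1 library each. The starts of Col7a1 and Col16a1 stand highest, at 515 and 466 in ablation, and those of Col4a4 and Col25a1 lowest, at 49.9 and 60.7.

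Per kb of peak, the most open start in ablation was that of Col7a1, which encodes the collagen of anchoring fibrils, at 515 normalized reads in ablation and 507 in control. In control the start of Col16a1 stood highest, at 466 in ablation and 514 in control. Among basement membrane genes, the start peak of Agrn (agrin, a heparan sulphate proteoglycan) had 365 in ablation and 403 in control, and that of Lama5, the alpha chain of laminin-511, 307 in ablation and 318 in control. Frem2 had 319 in ablation and 341 in control. It encodes a partner of Fras1 in the anchoring of embryonic epidermis. Fibrillar collagen starts stood lower than these, with 192 in ablation and 130 in control for Col5a1, 89.9 and 69.9 for Col27a1, and 69.6 and 74.7 for Col5a3. Some basement membrane starts were as low or lower. The start shared by Col4a1 and Col4a2 had 80.7 in ablation and 76.6 in control, and that of Col4a4 had 49.9 and 30.5. Of the 7 fibrillar collagen genes with a window, Col1a2, Col3a1, Col11a1 and Col24a1 had no tested peak over it. Among basement membrane genes 11 of 16 had one, and Col15a1, Egflam, Frem1, Lama2 and Nid1 did not.

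The promoter windows below are shown because members share a peak over them or because their start peak lay furthest from no change among the genes described. Letters are from RefSeq, build GRCm38.p6, 5′ to 3′ on the strand of the gene, with every match to the motifs named after them in capitals. Col4a1 lies at chr8:11312777-11313076 on the minus strand and Col4a2 at chr8:11312555-11312854 on the plus strand. The 2 windows overlap by 78 bases, and 1 peak covers both. Col4a4 lies at chr1:82586800-82587099 (minus strand), under a peak that also overlaps Col4a3. Col8a1 lies at chr16:57754688-57754987 (minus strand), Col5a1 at chr2:27886175-27886474 (plus strand) and Col6a2 at chr10:76623355-76623654 (minus strand).
Col4a1: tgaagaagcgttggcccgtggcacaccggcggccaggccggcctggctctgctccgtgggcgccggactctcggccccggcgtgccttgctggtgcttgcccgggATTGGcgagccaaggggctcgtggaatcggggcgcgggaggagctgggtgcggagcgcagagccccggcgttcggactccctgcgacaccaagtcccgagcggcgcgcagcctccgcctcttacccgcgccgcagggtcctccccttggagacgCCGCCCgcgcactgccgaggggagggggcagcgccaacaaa
Col4a2: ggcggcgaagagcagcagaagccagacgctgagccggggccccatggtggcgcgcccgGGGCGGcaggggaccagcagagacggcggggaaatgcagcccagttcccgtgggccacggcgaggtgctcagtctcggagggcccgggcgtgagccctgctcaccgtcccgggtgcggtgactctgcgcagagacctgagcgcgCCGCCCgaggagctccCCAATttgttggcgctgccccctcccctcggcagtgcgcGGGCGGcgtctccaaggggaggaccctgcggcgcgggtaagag
Col4a4: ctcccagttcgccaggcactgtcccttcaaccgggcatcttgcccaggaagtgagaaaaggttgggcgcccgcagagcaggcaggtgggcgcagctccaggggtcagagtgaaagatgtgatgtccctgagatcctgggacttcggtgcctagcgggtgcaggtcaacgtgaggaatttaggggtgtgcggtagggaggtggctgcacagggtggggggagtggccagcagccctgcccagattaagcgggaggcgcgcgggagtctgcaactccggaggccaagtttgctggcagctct
Col8a1: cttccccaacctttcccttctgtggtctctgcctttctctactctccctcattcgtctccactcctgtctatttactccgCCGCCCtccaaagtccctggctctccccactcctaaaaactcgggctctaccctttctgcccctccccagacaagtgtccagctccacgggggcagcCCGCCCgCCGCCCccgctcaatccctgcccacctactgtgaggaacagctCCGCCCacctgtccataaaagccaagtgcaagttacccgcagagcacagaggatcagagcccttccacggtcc
Col5a1: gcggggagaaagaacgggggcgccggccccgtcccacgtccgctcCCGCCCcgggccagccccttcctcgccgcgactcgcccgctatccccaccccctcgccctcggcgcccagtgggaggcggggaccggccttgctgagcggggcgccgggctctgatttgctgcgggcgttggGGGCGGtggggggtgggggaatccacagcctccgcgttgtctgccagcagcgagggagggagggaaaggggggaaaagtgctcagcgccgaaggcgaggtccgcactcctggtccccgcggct
Col6a2: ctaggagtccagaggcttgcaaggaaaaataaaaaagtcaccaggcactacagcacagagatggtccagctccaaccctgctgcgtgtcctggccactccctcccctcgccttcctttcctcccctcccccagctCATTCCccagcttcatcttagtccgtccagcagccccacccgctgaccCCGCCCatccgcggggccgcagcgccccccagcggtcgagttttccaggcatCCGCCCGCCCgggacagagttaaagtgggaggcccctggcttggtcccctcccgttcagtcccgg

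Motifs named for 5 factors or promoter elements were searched on both strands, and a match is a description of letters only. The GC box, spelled GGGCGG, was in 26 of the 39 member windows (66.7%), against 35.7% of all 32851 windows in the RefSeq table. The AP-1 motif TGANTCA was in 3 member windows (7.69%, against 7.81% of all). The CCAAT box was in 15 (38.5% against 37.4%). The TATA box, spelled TATAAA, was in 2 (5.13% against 13.6%). The TEAD motif GGAATG was in 5 (12.8% against 14.7%). In the sequences shown, the Col8a1 window holds 4 GC boxes, the Col4a2 and Col6a2 windows 3 each, the Col5a1 window 2 and the Col4a1 window 1. The GC box of the Col4a1 window lies where the windows overlap and is also 1 of the 3 counted for Col4a2. A pair of GC boxes in the Col6a2 window overlaps by 2 bases. The Col4a1 window and the Col4a2 window each hold 1 CCAAT box, the Col6a2 window holds 1 TEAD match, and the Col4a4 window holds none of the 5 motifs.

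The peak shared by the Col4a1 and Col4a2 starts, which serves the pair of genes for the widespread alpha chains of type IV collagen, had 64 reads in ablation and 78 in control (58.0 and 55.0 normalized reads, 1.05-fold, 0.746 to 1.49). The peak over Col4a3 and Col4a4, chains of type IV collagen best known from kidney and lung, had 28 reads in ablation and 22 in control (1.64-fold, 0.903 to 3.00). It is the only tested peak of either gene. The Col8a1 start, for a short-chain network collagen, had 170.5 normalized reads in ablation and 98.1 in control (1.74-fold, 1.39 to 2.18). The Col5a1 start, for the type V collagen that sets fibril width, had 287 in ablation and 194 in control (1.48-fold, 1.25 to 1.74). Both were higher in ablation by more than counting error. The Col6a2 start, for a chain of the beaded filament collagen VI, had 39.9 in ablation and 57.9 in control (0.690-fold, 0.467 to 1.01), with an interval that includes no change.

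Peaks away from the starts held the larger differences, and the same split was seen over all genes. Of all tested peaks not over a promoter window, 5.05% were at least 2-fold higher and 2.17% lower, against 1.27% and 0.235% over one. The 2 kinds of member peak also differ in strength, with medians of 210.5 normalized reads over a start and 59.4 elsewhere. The part of signal in this split was not tested. Counting a peak as changed from 2-fold on, 27 of the 301 tested peaks (8.97%) were higher in ablation and 5 (1.66%) were lower. Across all 76147 tested peaks the shares were 4.48% higher and 1.88% lower. Of the 27 higher peaks 20 lay in gene bodies, 6 outside genes and 1 at a gene end, taken as within 1 kb of either end. They belonged to 12 genes. Where a start is known, they lay between 3.44 and 499 kb from it, with a median of 73.6 kb. Under division of each library by its total over the table, which moves all log2 ratios by -0.34, 8 member peaks were higher and 17 lower (32% higher, against 84.4% as deposited).

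**Figure D2:**
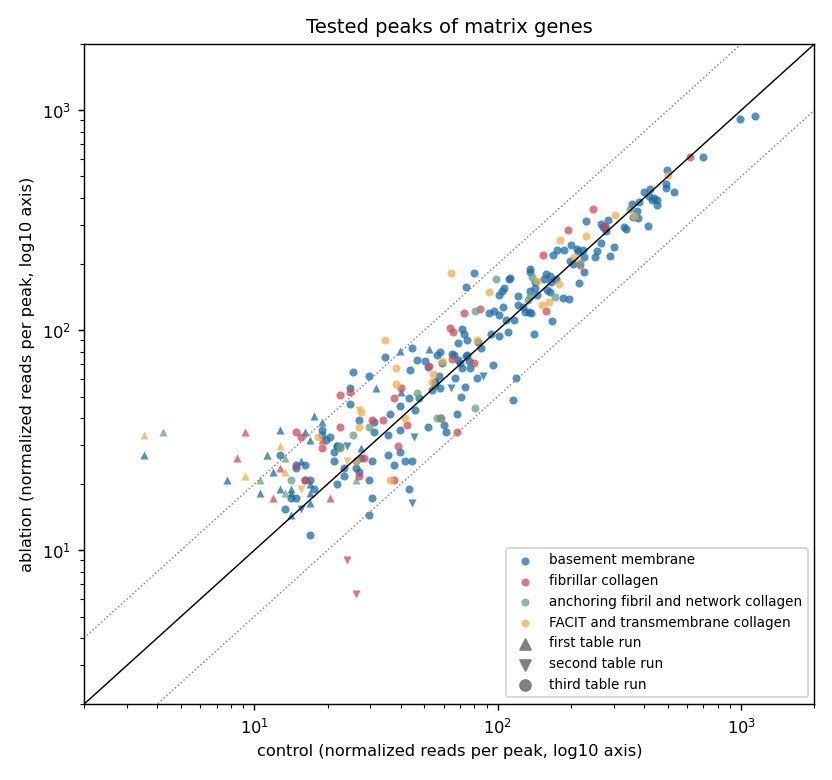
Normalized reads of each tested peak of the 45 genes in ablation (vertical, log10 axis) and control (horizontal, log10 axis), 1 library each, coloured by class and shaped by the run of the table that lists the peak. The solid line marks equal signal and the dotted lines 2-fold, and the 27 peaks above the upper dotted line have a median mean signal of 24.6 normalized reads, with 12 of them at 26.1 or more.

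The deposited table consists of 3 consecutive runs of peaks with no peak in common, and its notes do not say what sets them apart. In the first run 90.8% of all tested peaks were higher in ablation and in the second 18.4%. Of the 27 higher member peaks 14 came from the first run and 13 from the third, and of the 5 lower ones 3 came from the second and 2 from the third. Within the third run alone, 13 of 249 member peaks (5.22%) were higher and 2 (0.803%) lower, against 2.44% and 1.06% of all peaks there. Signal also moved with the result. Among peaks with a mean below 26.1 normalized reads, 20.5% of member peaks and 12.2% of all peaks were higher. Among stronger peaks the shares were 5.26% of member peaks and 2.55% of all peaks. Below the signal filter 12 of 38 member peaks passed 2-fold upward and 4 downward, against 21.1% and 12.9% of all 8444 peaks there. All 12 were among the 21 of the first run, where 42% of such peaks of any gene passed upward and 0.243% downward. The part of the run and of signal in these shares was not tested further.

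Taken per gene as the summed signal of its tested peaks, 42 members had a value, and Col1a2, Col3a1 and Col11a1 had no tested peak. The log2 ratio, with a pseudocount of 1, was above 0 in 24 of the 42, against 38.4% of 16268 genes. The median was 0.06, against -0.07 over all genes. At least 1.5-fold higher in ablation were 6 members (4.55% of all genes), and 1 was at least 1.5-fold lower (1.49% of all genes). Of the 6 higher ones, 5 rest on a single tested peak (Col4a3 and Col4a4 on the same one), a kind of gene in which 7.77% were higher and 3.33% lower. Among the 30 members with 3 or more tested peaks, 1 was higher and 1 lower, against 2.54% and 0.543% of such genes. The interval lay wholly above 1 for 12 members and wholly below 1 for 6, against 14.2% and 32.1% of all genes. Under division by the table total 11 members lay above 0. Strong gene-end peaks had a median log2 ratio of -0.13, and 33 members lay above 0 with ratios centred on them. As deposited, 27 of the 42 lay above the median of all genes. Both scalings shift members and all genes alike, so they gave the same count by construction. A loess correction, which shifts peaks by their signal, gave 28.

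**Figure D3:**
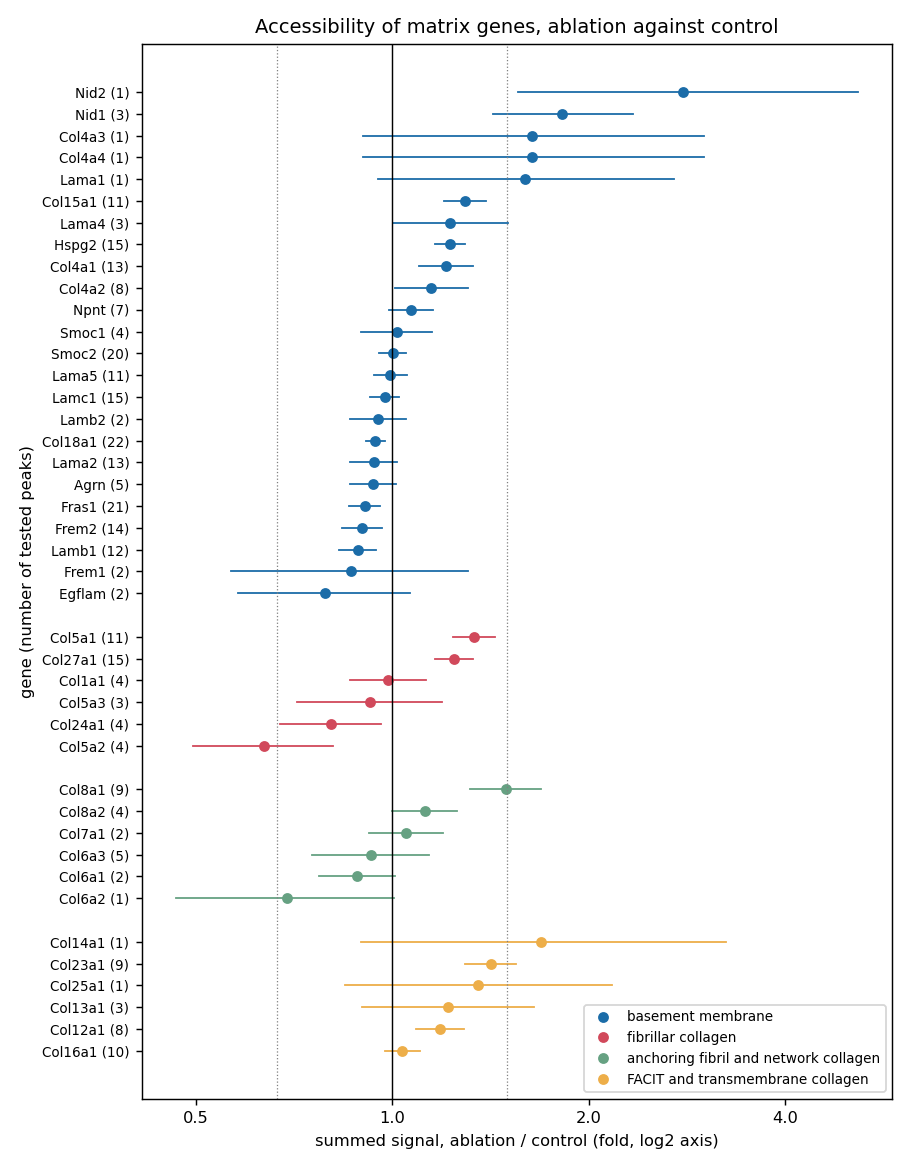
Fold of summed signal, ablation over control (log2 axis), for the 42 genes with a tested peak, with 95% counting intervals, grouped by class and ordered by fold, with the number of tested peaks in brackets. Dotted lines mark 1.5-fold, and the genes with the longest intervals, such as Nid2 (1.56 to 5.17) and Col14a1 (0.894 to 3.25), rest on 1 peak.

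Basement membrane genes as a class lay close to no change. Their 24 genes had a median log2 ratio of 0.01, and 13 lay above 0. Pooled over 205 peaks the fold was 1.00 (0.987 to 1.02), with 26130 normalized reads in ablation and 26069 in control. Of these peaks 14 (6.83%) passed 2-fold upward and 3 (1.46%) downward, against 4.48% and 1.88% of all tested peaks. Under division by the table total 6 of the 24 genes lay above 0, and 19 did with ratios centred on strong gene-end peaks.

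Nidogens, which link the laminin and type IV collagen networks, had the highest values. Nid1 had 147.8 normalized reads in ablation and 81.2 in control over 3 peaks (1.82-fold, 1.43 to 2.33). None of its 3 peaks overlaps the gene. The closest lies 16684 bp from it, with 66.2 normalized reads in ablation and 43.8 in control, and the 2 further ones each passed 2-fold. At chr13:13535322-13535929 the peak had 60 reads in ablation and 35 in control. Nid2 had a single tested peak at one end of the gene, chr14:19750966-19751416, with 39 reads in ablation and 18 in control (2.78-fold, 1.56 to 5.17). With peaks that overlap a gene alone, Nid1 has no value.

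Laminin genes were nearly level. The 7 genes had a median log2 ratio of -0.04, and 2 lay above 0. Of 57 peaks 1 was at least 2-fold higher and 0 lower, against 4.48% and 1.88% of all tested peaks. Lama5 had 1897 normalized reads in ablation and 1908 in control (0.994-fold, 0.938 to 1.05), and Lamc1, the gamma chain of most laminins, 2396 in ablation and 2460 in control (0.974-fold, 0.926 to 1.02). Lamb1, a beta chain, had 1411 in ablation and 1593 in control (0.886-fold, 0.830 to 0.945), an interval below 1. Its log2 ratio of -0.17 compares with a median of -0.13 for strong gene-end peaks. Lama2, the alpha chain of muscle laminin, had 882 in ablation and 941 in control over 13 peaks. Its peak at chr10:27117914-27118161 had 30 reads in ablation and 16 in control (2.41-fold, 1.27 to 4.73). Lama1, the alpha chain of embryonic laminin, rests on 1 peak with 36 reads in ablation and 29 in control (1.60-fold, 0.951 to 2.70). Lama4, an alpha chain of vessel walls, had 174 in ablation and 142 in control (1.23-fold).

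Type IV collagen genes all lay above 0, at log2 ratios from 0.20 to 0.68, though Col4a1 and Col4a2 do not under division by the table total. Col4a1 had 762 normalized reads in ablation and 630 in control over 13 peaks (1.21-fold, 1.10 to 1.33). In its gene body 3 peaks passed 2-fold upward. At chr8:11221107-11221782 there were 83 reads in ablation and 49 in control, at chr8:11262193-11262651 there were 45 and 25, and at chr8:11259921-11260165 there were 38 and 23. The start peak and the 5 peaks beyond the far end of the gene ranged in log2 ratio from -0.02 to 0.35. Col4a2 had 419 in ablation and 365 in control (1.15-fold, 1.01 to 1.30), with 0 of 8 peaks past 2-fold.

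The multiplexins, collagens of the basement membrane zone that carry proteoglycan chains, had intervals that do not overlap. Col15a1 had 1289 normalized reads in ablation and 997 in control over 11 peaks (1.29-fold, 1.20 to 1.39), and 4 peaks passed 2-fold upward. Its peak at chr4:47280165-47280452 had 30 reads in ablation and 5 in control (7.71-fold, 2.96 to 25.5), and that at chr4:47293542-47294897 had 201 in ablation and 113 in control (2.29-fold, 1.81 to 2.90). Its strongest peak, chr4:47251088-47252312, had 532 normalized reads in ablation and 494 in control, and is not among the changed ones. Col18a1, the source of endostatin, held more signal than any other member, with 5028 normalized reads in ablation and 5333 in control over 22 peaks (0.943-fold, 0.910 to 0.976). Its log2 ratio of -0.08 turned to 0.04 with ratios centred on strong gene-end peaks and after a loess correction. Its peaks had log2 ratios from -0.40 to 0.86, and none passed 2-fold.

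Perlecan (Hspg2), the large heparan sulphate proteoglycan of the basement membrane, had 2447 normalized reads in ablation and 1998 in control over 15 peaks (1.22-fold, 1.16 to 1.29). Its log2 ratio of 0.29 turned to -0.05 under division by the table total. The peak 3.44 kb before its start, chr4:137465196-137465524, had 89 reads in ablation and 56 in control (2.04-fold, 1.45 to 2.91), and the peak at chr4:137506515-137507090 had 68 in ablation and 42 in control (2.08-fold, 1.40 to 3.13). Its start peak was level, at 234 normalized reads in ablation and 212 in control. Agrn had 949 in ablation and 1014 in control (0.936-fold, 0.863 to 1.01). The 1 of its 5 peaks past 2-fold downward, chr4:156171645-156172353, had 53 reads in ablation and 163 in control (0.418-fold, 0.301 to 0.573).

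The Fras and Frem genes, whose proteins form a complex that holds embryonic epidermis to dermis, all lay below 0. Fras1 had 2009 normalized reads in ablation and 2214 in control over 21 peaks (0.907-fold, 0.859 to 0.958), and Frem2 had 1228 in ablation and 1366 in control over 14 peaks (0.899-fold, 0.838 to 0.964). As deposited, both differed by more than counting error but by less than 1.5-fold. With ratios centred on strong gene-end peaks, the log2 ratio of Fras1 was -0.01, against -0.14 as reported. Those gene-end peaks had a median of -0.13, close to the -0.15 of Frem2. Fras1 had 1 peak past 2-fold downward, chr5:96716230-96716770, with 21 reads in ablation and 61 in control. Frem1 had 37.2 in ablation and 43.0 in control from 2 weak peaks (0.864-fold, 0.567 to 1.30). Their median log2 ratio of -0.15 compares with -0.07 over all genes.

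Other basement membrane genes lay on both sides of 0. Smoc2, a calcium-binding matricellular protein, had 2854 normalized reads in ablation and 2851 in control over 20 peaks (1.00-fold, 0.955 to 1.05). A peak of 140 bp in its gene body, chr17:14288929-14289069, was lower, with 18 reads in ablation and 63 in control (0.367-fold, 0.205 to 0.628). Nephronectin (Npnt), a ligand of α8 integrin, was at 1.07-fold (0.989 to 1.16). With peaks that overlap the gene alone its log2 ratio was -0.06, against 0.10 as reported. The peak chr3:132871251-132871829, outside the gene, had 174 reads in ablation and 105 in control (2.13-fold, 1.66 to 2.74). Egflam (pikachurin, which binds dystroglycan) was the lowest of the class, with 66.2 normalized reads in ablation and 84.0 in control from 2 peaks (0.788-fold, 0.581 to 1.06).

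Fibrillar collagen genes divided into 3 kinds. Of the 9, Col1a2 and Col11a1 had no peak at all, and Col3a1 had 2 peaks beyond its end that were too weak to test, with 12 and 10 reads in ablation and 24 and 17 in control. Col5a1 and Col27a1 held 26 of the 41 tested peaks and lay above 0, though Col27a1 does not under division by the table total. The other 4 lay below 0, though Col1a1 and Col5a3 do not with ratios centred on strong gene-end peaks, nor Col24a1 with peaks that overlap the gene alone. The class median log2 ratio was -0.07, the same as over all genes, while the median over its peaks was 0.39 and the pooled fold 1.17 (1.12 to 1.22). Gene median and peak median thus differ in sign, and with peaks that overlap a gene alone the gene median was 0.30.

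Col5a1 had 1312 normalized reads in ablation and 982 in control over 11 peaks (1.34-fold, 1.24 to 1.44). Its peak outside the gene at chr2:28046176-28046585 had 38 reads in ablation and 13 in control (3.76-fold, 1.96 to 7.69), and that at chr2:28037620-28037942 had 36 in ablation and 22 in control. Col27a1, a fibrillar collagen known from cartilage, had 1542 in ablation and 1240 in control over 15 peaks (1.24-fold, 1.16 to 1.33). In its gene body 4 peaks passed 2-fold upward. That at chr4:63290103-63290409 had 29 reads in ablation and 12 in control (3.11-fold, 1.54 to 6.68). Its strongest peak, chr4:63323268-63324083, had 612 normalized reads in ablation and 615 in control.

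Col1a1, a chain of type I collagen, the main collagen of dermis, had 358 normalized reads in ablation and 363 in control over 4 peaks (0.986-fold, 0.862 to 1.13). Col5a2, the partner chain of Col5a1, was the 1 member at least 1.5-fold lower, with 90.7 in ablation and 142.5 in control over 4 peaks (0.636-fold, 0.496 to 0.812). Its peak at chr1:45422884-45423187 had 10 reads in ablation and 34 in control (0.378-fold, 0.167 to 0.783). Col24a1, a fibrillar collagen of bone, had 189 in ablation and 234 in control (0.805-fold, 0.674 to 0.960). A peak 25161 bp outside the gene, before its start, chr3:145267100-145267311, had 7 reads in ablation and 37 in control. With peaks that overlap the gene alone, or lie within 5 kb, the direction of Col24a1 turned, to a log2 ratio of 0.34 against -0.31 as reported.

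Set side by side, the medians of the basement membrane and fibrillar collagen genes differed by 0.08 on the log2 scale (0.01 and -0.07). With peaks that overlap a gene alone the difference was -0.30, so its sign depends on the peaks counted. By peak, 6.83% of the basement membrane peaks and 14.6% of the 41 fibrillar collagen peaks passed 2-fold upward, and 1.46% and 4.88% downward. Across all tested peaks 4.48% passed upward and 1.88% downward. The 6 higher fibrillar peaks all belong to Col5a1 and Col27a1. Weak peaks were also more frequent there. Below a mean of 26.1 normalized reads lay 21.0% of basement membrane peaks and 34.1% of fibrillar collagen peaks. Of these weak peaks, 6 of 43 and 4 of 14 passed 2-fold upward, and 0 and 2 downward. Among all tested peaks that weak, 12.2% passed upward and 5.12% downward. Of the stronger peaks, 8 of 162 and 2 of 27 passed upward, and 3 and 0 downward, against 2.55% and 1.07% of all stronger peaks. Peaks of 1 gene share their locus, and with 1 library per group the difference between the classes was not tested.

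**Figure D4:**
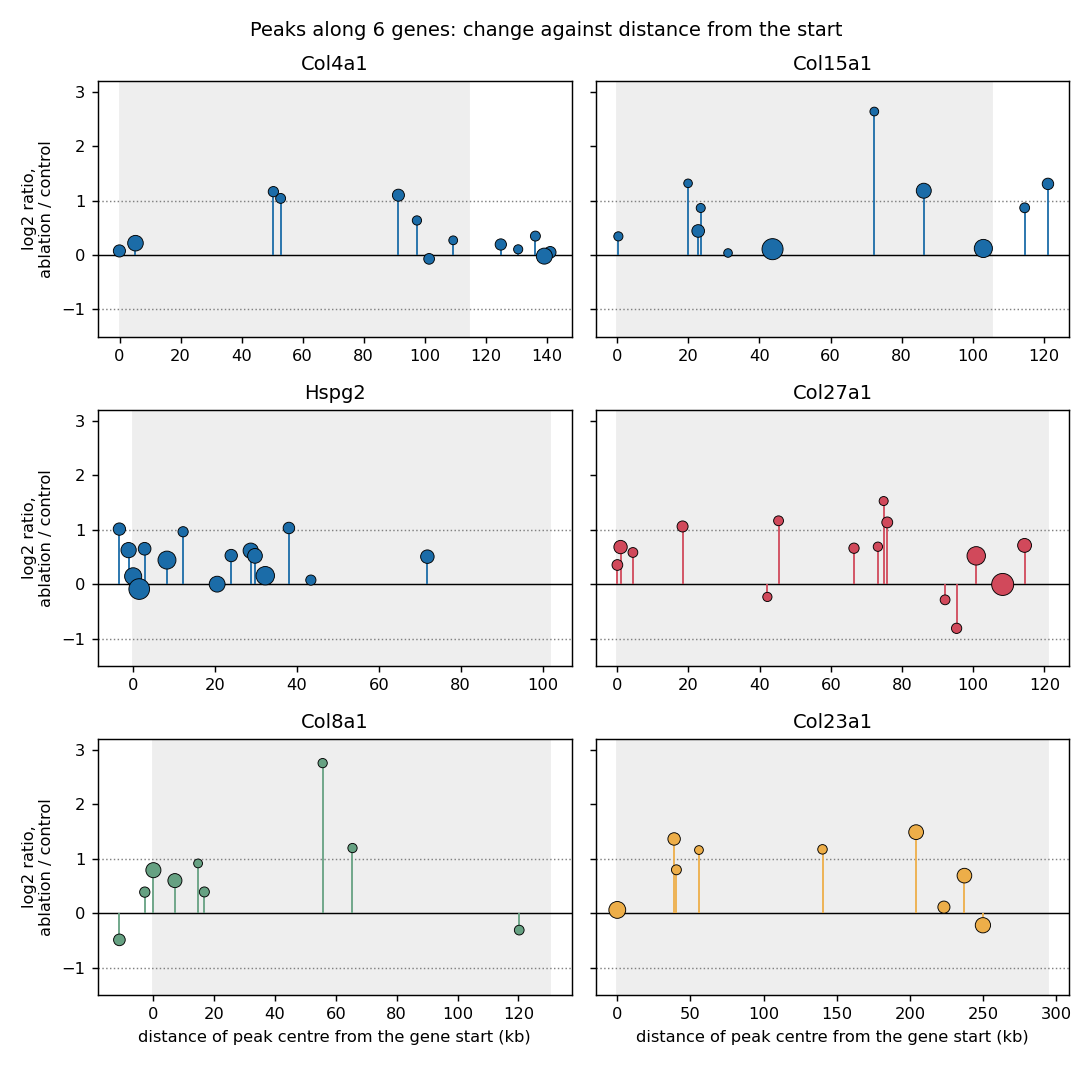
Log2 ratio of ablation to control (vertical) of each tested peak of 6 genes against the distance of its centre from the gene start in kb (horizontal), with the length of the gene in grey, circle area growing with signal and dotted lines at 2-fold. In all 6 genes (Col4a1, Col15a1, Hspg2, Col27a1, Col8a1 and Col23a1) the peak nearest the start lies within 2-fold of no change. It is at 0.08 for Col4a1 and at 0.79 for Col8a1, and the peaks past 2-fold lie elsewhere.

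Among the other collagens, the network collagen Col8a1 and the transmembrane collagen Col23a1 had the most changed peaks. Col8a1 had 499.8 normalized reads in ablation and 335 in control over 9 peaks (1.49-fold, 1.32 to 1.69). Its peak at chr16:57698866-57699300 had 38 reads in ablation and 6 in control (8.14-fold, 3.41 to 23.6), and that at chr16:57689111-57689423 had 30 in ablation and 16 in control. Both are listed in the first run. Col8a2, its partner chain, had 508 in ablation and 453 in control (1.12-fold, 0.999 to 1.26). Col7a1 was at 1.05-fold (0.922 to 1.20). Type VI collagen genes lay below 0 (Col6a3 not with ratios centred on strong gene-end peaks), with Col6a1 at 344 in ablation and 389 in control (0.884-fold, 0.774 to 1.01), and all 3 intervals include no change.

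Col23a1 had 910 normalized reads in ablation and 643 in control over 9 peaks (1.42-fold, 1.29 to 1.55), and 4 of its peaks passed 2-fold upward. The strongest of these, chr11:51493481-51494743, had 201 reads in ablation and 91 in control (2.84-fold, 2.21 to 3.68), and chr11:51328481-51329176 had 100 in ablation and 49 in control (2.62-fold, 1.85 to 3.77). Its start peak had 215 normalized reads in ablation and 206 in control. Col13a1, a transmembrane collagen of adhesion sites, had 79.8 in ablation and 65.6 in control over 3 peaks (1.22-fold, 0.898 to 1.65). It held the highest fold of any tested member peak, at chr10:61944357-61944744, with 37 reads in ablation and 5 in control (9.51-fold, 3.73 to 31.0). The value of the gene rests on that peak, listed in the first run. In the largest run alone, and with the filter at the 25th percentile, its log2 ratio was -0.42, against 0.28 as reported.

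Of the 19 tested peaks of the FACIT collagens 0 passed 2-fold, against 4.48% higher and 1.88% lower across all tested peaks. With so few peaks, that count is no result about these genes. Col12a1 had 959 normalized reads in ablation and 811 in control over 8 peaks (1.18-fold, 1.09 to 1.29). Col16a1, which occurs at the junction of dermis and epidermis, had 1722 in ablation and 1662 in control over 10 peaks (1.04-fold, 0.975 to 1.10). Col14a1 rests on 1 peak with 25 reads in ablation and 19 in control (1.69-fold, 0.894 to 3.25). All 6 FACIT and transmembrane genes had log2 ratios above 0, against 38.4% of all genes. Their median was 0.35, against -0.07 over all genes. The direction above 0 did not hold at Col16a1, Col12a1 and Col13a1 under division by the table total.

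Having at least 1 changed peak was common. A peak at least 2-fold higher occurred in 12 of the 42 members (12.4% of all genes) and a lower one in 5 (6.21% of all genes). Genes with many peaks have more chances. Of the 14 members with 10 or more tested peaks, 6 had a higher peak and 2 a lower one, against 37.8% and 23.1% of such genes. The 13 members with a tested peak that the rule for description did not pick had log2 ratios from -0.17 to 0.42, and for 4 of them the interval excluded no change.

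Genes that fold, crosslink or bind these matrix proteins were also tallied. Of 17 folding and crosslinking genes 15 had a tested peak, with a median log2 ratio of -0.02. At least 1.5-fold higher were Loxl2, a collagen crosslinker, with 105 normalized reads in ablation and 55.7 in control (1.89-fold, 1.41 to 2.54), the prolyl hydroxylase P4ha3 (1.78-fold, 1.49 to 2.14) and the lysyl hydroxylase Plod2 (1.55-fold, 1.21 to 1.99). These are 3 of the 15, against 4.55% of all genes, and Plod2 rests on 1 peak. None was 1.5-fold lower. All 14 matrix receptor genes had tested peaks, 0 passed 1.5-fold, 3 lay above 0, and the interval lay wholly below 1 for 9, against 32.1% of all genes. Dag1 (dystroglycan, a receptor of laminins, agrin and perlecan) had 1749 in ablation and 2063 in control (0.847-fold, 0.800 to 0.898). Lamb3, a laminin beta chain, was at 0.918-fold (0.847 to 0.995), and Col17a1, a collagen of the hemidesmosome, at 0.785-fold (0.741 to 0.833).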

How the data were processed

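ATAC-seq of sorted basal epidermal cells was deposited as 1 table of normalized signal per peak and library, 1 ablation and 1 control. Build mm10 and HTSeq, MACS2 2.1.0.20151222, Bowtie2 2.3.4.2, Trimmomatic and Picard are named in the submitters' processing notes, without settings, roles or the way peaks were chosen. The table's headings differ from the sample titles in a number and in the word for the ablation, and each heading was matched as the single one of its genotype. All values (100% within 0.1 of a read) in each deposited signal column were whole multiples of 1 step, so whole reads were recovered; with 1 library per group no count test could be run on them.

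Repeats among 116411 rows were merged to 84594 peaks, and 3 mitochondrial peaks were left out. The table totals used as 1 of the scalings still include them. Whether starts count from 0 or 1 is not stated. Peaks with a mean of at least 13.96 normalized reads, the 10th percentile, were tested (76147), and log2 ratios used a pseudocount of 1. A count of 0 (3 reads) allows up to 2.72 normalized reads in ablation and 2.12 in control. PCR copies are not independent molecules.

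Gene positions and promoter windows came from RefSeq, GRCm38.p6, the assembly behind mm10. Described members are those past 1.5-fold, with a peak past 2-fold, or among the 2 highest or lowest ratios or 2 highest signals of their class; a few others were added after their values were seen. Members and lists were chosen with earlier results of these data known. Steps were tested on simulated reads. Alternatives covered pseudocount, filter, scaling, table run, assignment and gene value. Columns of other samples numbered 0. Software was Python 3.11.15 with scipy 1.17.1, matplotlib 3.10.9, statsmodels 0.14.6, pandas 2.3.3 and numpy 2.4.6.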

Additional observations from a re-analysis of the deposited data

Results flagged for a closer look

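The mitochondrial genome took 31.2% of reads in peaks in ablation and 7.31% in control. Of the 38 member peaks below the signal filter, 12 passed 2-fold upward in ablation and 4 downward, against 21.1% and 12.9% of all peaks below it. The 12 are all among 21 from the first run of the table, where 42% of such peaks of any gene passed upward, so the count is no result about these genes. The interval lay wholly above 1 in 8 of the 12, all of them in gene bodies. In Col23a1 there were 3, with 13 reads in ablation and 1 in control (16.7-fold, 2.51 to 710.1), 15 and 3 (6.43-fold, 1.82 to 34.6), and 21 and 9 (3.00-fold, 1.32 to 7.44). Col15a1 had 2, with 23 and 5 reads (5.91-fold, 2.20 to 19.9) and 21 and 10 reads (2.70-fold, 1.22 to 6.42). Col5a1 had 2 at 2.57-fold (1.19 to 5.87) and 2.22-fold (1.00 to 5.16), and Col4a1 had 1 at 4.37-fold (1.55 to 15.1). Among the lower ones, the interval excluded no change for 1 Smoc2 peak, with 7 reads in ablation and 29 in control (0.310-fold, 0.115 to 0.724).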

How the results depend on the processing

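Values of members picked by the rule for description numbered 354 under the alternatives. Of these, 294 stayed within the counting interval of the reported value, and no member past 1.5-fold changed sign. These counts are no measure of robustness. Of the members past 1.5-fold, 5 rest on 1 tested peak. For them the alternatives of assignment and gene value could only return the same value or none, and their intervals are wide. Among the members picked by that rule, some under 1.5-fold changed sign under at least 1 alternative. They were Col4a1, Hspg2, Npnt, Smoc2, Col18a1, Lama2, Agrn, Col27a1, Col24a1, Col8a2, Col12a1, Col13a1 and Col16a1. Members outside the rule are not in these counts, and at least Col4a2, Col1a1, Col5a3 and Col6a3 of them also changed sign under a scaling. Scaling by the table total, mitochondrial peaks included, gave 8 higher and 17 lower peaks. Median log2 ratios were then -0.33 (basement membrane) and -0.40 (fibrillar collagen). Centring on strong gene-end peaks gave medians of 0.14 and 0.0606. A loess correction gave a basement membrane median of 0.0668 and a difference of 0.19. The fibrillar median was 0.30 and the difference -0.30 both with peaks that overlap the gene alone and with peaks within 5 kb alone. Taking the highest peak gave medians of -0.0292 and -0.26 and a difference of 0.23, and the median peak gave 0.0869 for basement membrane genes. Higher peaks numbered 16 with a pseudocount of 5, 16 with the filter at the 25th percentile and 13 in the largest table run alone. Lower peaks numbered 9 without a filter, 3 at the 25th percentile and 2 in that run. The causes were not tested. Taking only members with at least 3 tested peaks, chosen after seeing the data, moved no median beyond its interval. No paired analysis was possible because there is 1 library per group. Depth limits the single peaks, since the 27 higher ones rest on 23 to 201 reads in ablation and 5 to 113 in control.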
